A study of Mus musculus with 21 samples.

Results

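Transforming growth factor β (TGF-β) signalling was described here through 10 genes taken by name: the ligands Tgfb1, Tgfb2 and Tgfb3, the receptors Tgfbr1 and Tgfbr2, the signal transducers Smad2, Smad3 and Smad7, and the target genes Tgfbi and Ctgf. Ctgf was listed in the deposited symbols as Ctgf and in the annotation used here as Ccn2. All 10 were found among the 20634 genes present in both deposited expression tables. The data were RNA-seq read counts from whole kidneys of female apoE KO mice, which lack apolipoprotein E, become hypercholesterolemic and develop atherosclerosis, on a C57BL/6J background. Every group carried this knockout, so no comparison spoke about mice with an intact Apoe gene.

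Mice were 18 weeks old at collection and had eaten their diet for 14 weeks from an age of 4 weeks. The 5 Con mice ate chow. The 6 Ade mice ate chow with 0.2% adenine, which crystallises in the tubules as a poorly soluble metabolite and gives a model of chronic kidney disease (CKD), and the 6 Ade + IMC mice ate 0.2% adenine with 0.06% iodomethylcholine (IMC), an inhibitor of the gut bacterial enzyme that makes trimethylamine from choline. The study asked whether lowering trimethylamine N-oxide in this way changed the kidney disease. Con + IMC mice, of which the labels listed 4, were not analysed here.

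TGF-β ligands are secreted in a latent complex and, once released, bind the type II receptor (Tgfbr2), which then phosphorylates the type I receptor (Tgfbr1). The type I receptor phosphorylates Smad2 and Smad3, which enter the nucleus with Smad4 and switch target genes on or off, while Smad7 is an inhibitory SMAD that is itself induced by the pathway and blocks the receptor. In kidney the pathway is best known for driving extracellular matrix production by fibroblasts and pericytes during fibrosis. Because phosphorylation and latency are not read by RNA-seq, the values below are transcript levels only.

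All 10 are protein-coding genes (GENCODE M21, GRCm38). The ligand genes lie at chr7:25687002-25705077 (Tgfb1, + strand), chr1:186622792-186705989 (Tgfb2, - strand) and chr12:86056745-86079041 (Tgfb3, - strand), and the receptor genes at chr4:47353222-47414931 (Tgfbr1, + strand) and chr9:116084293-116175360 (Tgfbr2, - strand). Smad3 is at chr9:63646767-63757994 (- strand), Tgfbi at chr13:56609523-56639562 (+ strand) and Ctgf at chr10:24595442-24598683 (+ strand), while Smad2 and Smad7 are both on chromosome 18.

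Libraries held between 5444833 and 11680809 reads in genes, with medians of 8864086 for Con, 7306464.5 for Ade and 6996367.5 for Ade + IMC, and the 10 genes had between 31 and 2628 reads each in a library. Levels are given as CPM, the reads of a gene scaled to a common, TMM-adjusted library size, with 1 value per mouse. All 10 tubule and podocyte markers were present in the Con kidneys, with summed levels of 16996 to 23822 CPM. Scaling mattered in the comparisons with Con: TMM factors were 0.836 to 0.908 in Con and 0.995 to 1.135 in the adenine-fed mice, and scaling to total counts alone moved the median log2 fold change of all genes from 0.019 to 0.317 for Ade against Con and from -0.016 to 0.274 for Ade + IMC against Con. Under total count scaling 7990 genes were higher and 2497 lower in Ade than in Con, in place of 5135 and 4706, and 7531 were higher and 2247 lower in Ade + IMC than in Con, in place of 4504 and 4715. In whole kidney, fewer cells of a type and less RNA per cell cannot be told apart.

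In Ade compared to Con kidneys, 9 of the 10 genes were higher at an adjusted p below 0.1 in edgeR's quasi-likelihood test, where 35.1% of the 14612 genes tested were higher and 32.2% were lower. The median log2 fold change of the 10 genes was 0.84, against 0.019 over all genes tested. For 6 of the 10, every Ade mouse was above every Con mouse, which held for 22.8% of all genes tested. The size of the difference ran from 6.21-fold for Tgfbi down to 1.20-fold for Smad3, and the gene not called was Smad7.

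**Figure D1:**
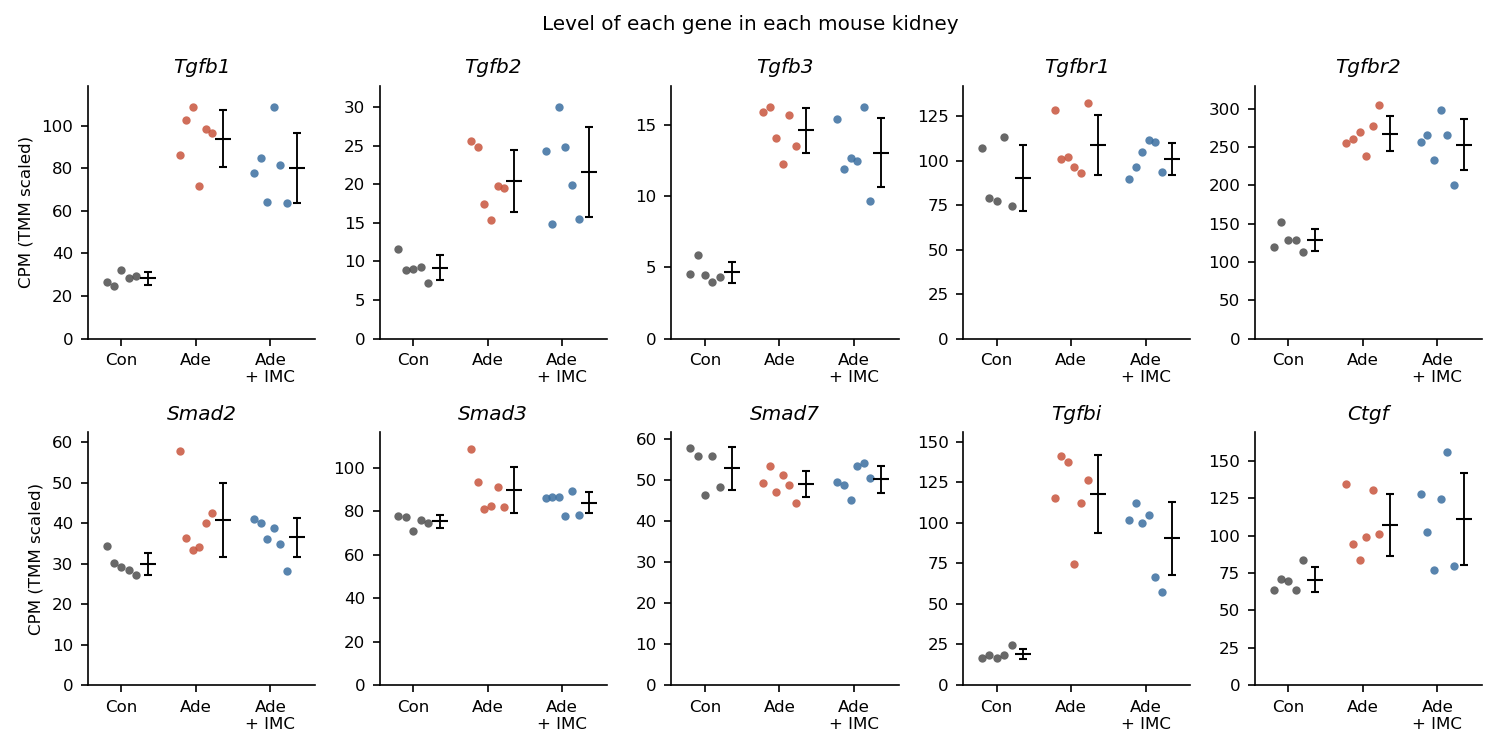
TMM-scaled CPM (y axis, linear, starting at 0) of the 10 genes in each kidney, by group. Points are mice, horizontal bars are means and whiskers are SD (5 Con, 6 Ade, 6 Ade + IMC mice). For Tgfb1, Tgfb2, Tgfb3, Tgfbr2 and Tgfbi both adenine-fed groups sit wholly above Con, while Smad7 overlaps across all groups.

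Among the ligands, Tgfb1, the isoform best known in fibrosis, had levels of 26.5, 24.5, 32.4, 28.5 and 29.2 CPM in the 5 Con mice. In Ade it ranged from 71.5 to 109 CPM with a median of 97.4. The 2 groups were far apart, and Tgfb1 was 3.34-fold higher in Ade (log2 fold change 1.74 ± 0.11, SE, adjusted p = 5.9e-08). Tgfb3, a second secreted isoform, was at 4.57, 5.90, 4.46, 4.00 and 4.30 CPM in Con and at 12.3 to 16.3 CPM (median 14.9) in Ade. This was a 3.17-fold difference without overlap (log2 fold change 1.67 ± 0.14, SE, adjusted p = 4.0e-07). Tgfb2, the third isoform, was at 11.6, 8.93, 9.06, 9.28 and 7.17 CPM in Con and at 15.4 to 25.6 CPM (median 19.6) in Ade, a 2.22-fold difference (log2 fold change 1.15 ± 0.16, SE, adjusted p = 3.5e-05). Here too every Ade mouse was above every Con mouse, with a narrower gap than for Tgfb1.

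Per kilobase of exon, which allows genes to be set side by side, Tgfb1 was the highest of the 3 ligands in each group. It stood at 5.60 ± 0.59 CPM per kb (SD, n = 5) in Con, 18.6 ± 2.64 (SD, n = 6) in Ade and 15.9 ± 3.30 (SD, n = 6) in Ade + IMC. Tgfb2 was at 1.59 ± 0.27 and Tgfb3 at 1.37 ± 0.22 CPM per kb in Con, which did not differ beyond their SDs, and at 3.53 ± 0.70 and 4.33 ± 0.47 in Ade. Within a library, the ratio of Tgfb1 to Tgfb2 reads rose from a geometric mean of 3.09 in Con to 4.63 in Ade (log2 difference 0.59, two-sided exact permutation p = 0.0173). The corresponding ratio of Tgfb1 to Tgfb3 was 6.10 in Con and 6.39 in Ade (exact permutation p = 0.736), so no difference between these isoforms was detected there. Exons of Tgfb2 and Tgfb3 overlap genes on the other strand by 124 of 5791 and 420 of 3383 bases. Whether counting used strand is not given in the sources used here, so a small share of the Tgfb2 and Tgfb3 reads is uncertain.

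The receptors moved unequally. Tgfbr2, the ligand-binding type II receptor, was at 120, 152, 129, 129 and 113 CPM in the Con mice and between 239 and 305 CPM (median 265) in Ade. It was 2.09-fold higher in Ade with no overlap (log2 fold change 1.07 ± 0.10, SE, adjusted p = 8.3e-07). Tgfbr1, the type I receptor kinase, was at 107, 78.9, 77.4, 114 and 74.7 CPM in Con and at 93.3 to 132 CPM (median 102) in Ade. The groups overlapped, since Con replicates 1 and 4 lay within the Ade range. Its 1.21-fold difference passed the threshold narrowly (log2 fold change 0.28, 95% interval -0.02 to 0.57, adjusted p = 0.095), and the call was lost with DESeq2 (adjusted p = 0.171), with RLE size factors (0.126), without the filter on low counts (0.148), and without Con replicate 2, 3 or 5 or Ade replicate 1 or 6 (0.172 to 0.218).

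The ratio of the 2 receptors does not depend on library scaling. Per kilobase, Tgfbr2 stood at 0.893 to 1.54 times Tgfbr1 in the Con libraries and at 1.58 to 2.37 times Tgfbr1 in the Ade libraries. The geometric mean of the read ratio was 1.44 in Con and 2.47 in Ade (log2 difference 0.78, exact permutation p = 0.00433, the smallest that 462 splits of these mice can give). Every Ade library was above every Con library in this ratio. In Con the levels per kilobase, 15.7 ± 1.77 for Tgfbr2 and 13.8 ± 2.83 for Tgfbr1 (SD, n = 5), did not differ beyond their SDs, whereas in Ade they were 32.7 ± 2.74 and 16.7 ± 2.605 (SD, n = 6).

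Promoters of 6 of the 10 genes were matched in the RefSeq table (GRCm38.p6), and 4 are shown: the 2 ligands and the 2 receptors whose levels diverged. Each is the 250 bases before the start site, 5′ to 3′ on the strand of the gene: Tgfb1 at chr7:25686752-25687001 (+ strand), Tgfb2 at chr1:186705990-186706239 (- strand), Tgfbr1 at chr4:47352972-47353221 (+ strand, the first of 2 start sites) and Tgfbr2 at chr9:116175364-116175613 (- strand). Capitals mark CAGAC, the box that SMAD proteins recognise, and GGGCGG, the GC box of SP1-type factors, each searched on both strands. CAGAC was present in 42.2% and GGGCGG in 32.7% of the 32851 promoter windows of this length.
Tgfb1: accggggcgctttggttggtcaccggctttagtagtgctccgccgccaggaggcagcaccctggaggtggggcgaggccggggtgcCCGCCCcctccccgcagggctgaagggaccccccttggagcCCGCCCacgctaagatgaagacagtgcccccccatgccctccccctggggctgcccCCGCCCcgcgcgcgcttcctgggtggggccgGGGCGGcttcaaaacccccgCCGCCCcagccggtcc
Tgfb2: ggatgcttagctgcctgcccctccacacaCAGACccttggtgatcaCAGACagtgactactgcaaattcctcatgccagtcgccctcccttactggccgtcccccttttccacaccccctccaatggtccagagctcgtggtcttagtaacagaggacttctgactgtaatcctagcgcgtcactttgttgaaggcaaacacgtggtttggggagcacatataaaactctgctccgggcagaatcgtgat
Tgfbr1: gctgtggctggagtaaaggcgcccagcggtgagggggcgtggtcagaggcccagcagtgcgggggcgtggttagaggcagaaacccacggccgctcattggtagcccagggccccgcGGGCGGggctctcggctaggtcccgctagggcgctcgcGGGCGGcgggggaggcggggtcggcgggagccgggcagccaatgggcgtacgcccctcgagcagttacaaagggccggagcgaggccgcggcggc
Tgfbr2: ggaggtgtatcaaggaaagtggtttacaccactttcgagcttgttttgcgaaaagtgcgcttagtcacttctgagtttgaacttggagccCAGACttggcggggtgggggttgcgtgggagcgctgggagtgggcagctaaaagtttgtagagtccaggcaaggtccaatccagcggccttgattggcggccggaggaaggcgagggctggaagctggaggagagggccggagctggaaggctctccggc
Tgfb1 had 5 GGGCGG boxes and no CAGAC at 75.2% GC, and Tgfbr1 had 2 GGGCGG boxes and no CAGAC at 74.8% GC. The window of the second Tgfbr1 start site, not shown, had 1 CAGAC and no GGGCGG at 52.8% GC. Tgfb2 held CAGAC at 2 places and Tgfbr2 at 1, with no GGGCGG, at 53.6% and 58.4% GC. The median GC content of all windows was 52.4%. The palindrome GTCTAGAC and the AP-1 element TGANTCA, found in 0.167% and 6.75% of all windows, were absent from all 4. These are matches of letters in a short window and say nothing about binding.

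Of the SMADs, Smad2, a receptor-activated SMAD, was at 34.4, 30.1, 29.1, 28.5 and 27.3 CPM in Con and at 33.4 to 57.9 CPM (median 38.3) in Ade. The highest Con mouse overlapped the lower end of the Ade range. Smad2 was 1.37-fold higher in Ade (log2 fold change 0.45 ± 0.13, SE, adjusted p = 0.0095), and without Ade replicate 1, which stood apart from the other 5 Ade mice, the log2 fold change was 0.33 (adjusted p = 0.0087). Smad3, the other receptor-activated SMAD and the one best known for collagen induction, was at 77.9, 77.4, 70.8, 75.9 and 74.7 CPM in Con and at 81.2 to 109 CPM (median 86.7) in Ade. The groups did not overlap although the difference was only 1.20-fold (log2 fold change 0.26 ± 0.08, SE, adjusted p = 0.016).

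Smad7, the inhibitory SMAD, was at 57.9, 55.9, 46.4, 55.9 and 48.4 CPM in Con and at 44.3 to 53.4 CPM (median 49.0) in Ade. The groups overlapped and Smad7 was not called (log2 fold change -0.10, 95% interval -0.27 to 0.07, adjusted p = 0.280). Its sign depended on scaling: with total counts in place of TMM, Smad7 came out higher in Ade (log2 fold change 0.20, adjusted p = 0.053), in a fit where the median gene moved up by 0.317. Ratios within a library avoid this choice. The read ratio of Smad2 to Smad7 was 0.565 in Con and 0.817 in Ade (log2 difference 0.53), and that of Smad3 to Smad7 was 1.43 in Con and 1.83 in Ade (log2 difference 0.35), each with an exact permutation p of 0.00433 and no overlap between groups.

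**Figure D2:**
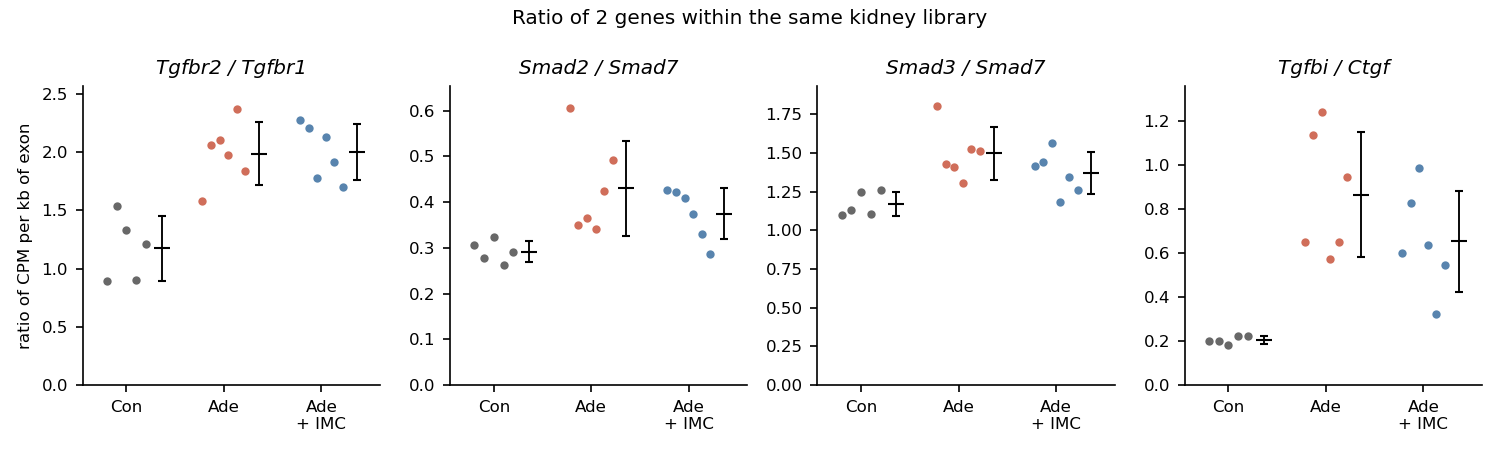
Ratio of 2 genes within each kidney library, from CPM per kilobase of exon (y axis, linear, starting at 0), by group. Points are mice, horizontal bars are means and whiskers are SD. The Ade libraries lie above the Con libraries in all 4 panels, and Ade + IMC overlaps Ade in each.

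Tgfbi, a secreted matrix adaptor protein named for its induction by TGF-β, had the largest difference of the 10 genes. It was at 16.6, 18.7, 16.9, 18.6 and 24.65 CPM in Con and at 74.7 to 141 CPM (median 121) in Ade. The lowest Ade mouse was well above the highest Con mouse, giving a 6.21-fold difference (log2 fold change 2.63 ± 0.17, SE, adjusted p = 4.4e-08). Ctgf, a matricellular protein induced by TGF-β and by YAP, was at 63.4, 71.3, 69.7, 63.6 and 84.0 CPM in Con and at 83.7 to 135 CPM (median 100.2) in Ade. Only the highest Con and the lowest Ade mouse crossed, and Ctgf was 1.53-fold higher in Ade (log2 fold change 0.62 ± 0.13, SE, adjusted p = 9.8e-04). Exons of Ctgf share 665 of 2861 bases with a gene on the other strand, so part of its reads is uncertain.

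The 2 target genes therefore separated widely in the same libraries. Per kilobase, Tgfbi was at 0.184 to 0.223 of Ctgf in Con and at 0.572 to 1.24 of Ctgf in Ade (log2 difference 2.02, exact permutation p = 0.00433). In Con the order of levels per kilobase was Ctgf (24.6 ± 2.94, SD, n = 5), Tgfbr2, Tgfbr1, Smad3 (13.6 ± 0.51), Smad7 (11.7 ± 1.14), Tgfb1, Tgfbi (5.06 ± 0.86), Smad2 (3.40 ± 0.31), Tgfb2 and Tgfb3. Neighbours whose SDs overlapped in this order were Tgfbr2, Tgfbr1 and Smad3, Tgfb1 and Tgfbi, and Tgfb2 and Tgfb3. In Ade, Ctgf (37.5 ± 7.20, SD, n = 6), Tgfbr2 and Tgfbi (31.2 ± 6.39) formed the top of the order within their SDs. Tgfb1, Tgfbr1 and Smad3 (16.2 ± 1.92) followed, then Smad7 (10.8 ± 0.70), and Smad2 (4.64 ± 1.04), Tgfb3 and Tgfb2 came last.

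In Ade + IMC compared to Con kidneys, which used the same 5 Con mice, 7 of the 10 genes were higher and none lower, where 30.9% of the 14578 genes tested were higher and 32.3% lower. Groups did not overlap for 5 of the 10, against 20.7% of all genes tested. These were the 3 ligands, Tgfbr2 and Tgfbi. Tgfb1 ranged from 63.7 to 109 CPM (median 79.6) in Ade + IMC, 2.78-fold above Con (log2 fold change 1.47 ± 0.14, SE, adjusted p = 3.5e-06). Tgfb3, at 9.66 to 16.3 CPM (median 12.6), was 2.74-fold higher, and Tgfb2, at 14.9 to 30.1 CPM (median 22.1), was 2.28-fold higher (adjusted p = 1.1e-05 and 2.1e-04). Tgfbr2, at 200 to 298 CPM (median 261), was 1.92-fold higher (adjusted p = 1.6e-05), and Tgfbi, at 57.4 to 112 CPM (median 100.8), was 4.64-fold higher (adjusted p = 1.3e-06). Each of these ranges lay wholly above that of the Con mice.

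Ctgf was 1.54-fold higher in Ade + IMC than in Con, at 76.9 to 156 CPM (median 114), with overlap (log2 fold change 0.63 ± 0.17, SE, adjusted p = 0.0070). Smad2, at 28.1 to 41.0 CPM (median 37.4), was 1.19-fold higher (log2 fold change 0.25 ± 0.11, SE, adjusted p = 0.058), and this call was lost without Con replicate 3, 4 or 5 or Ade + IMC replicate 1 or 2 (adjusted p = 0.108 to 0.128). The other 3 genes were not called. Tgfbr1, at 89.9 to 112 CPM (median 100.6), had a log2 fold change of 0.13 (95% interval -0.14 to 0.39, adjusted p = 0.401). Smad3, at 77.8 to 89.3 CPM (median 86.2), had one of 0.12 (95% interval -0.01 to 0.25, adjusted p = 0.117), and it was called with upper quartile scaling (log2 fold change 0.20, adjusted p = 0.015), with RLE size factors (0.14, 0.087), in a fit of all 17 mice (0.16, 0.087), and without Ade + IMC replicate 4 (0.14, 0.075) or 6 (0.18, 0.024). Smad7, at 45.2 to 54.2 CPM (median 50.02), had one of -0.11 (95% interval -0.29 to 0.07, adjusted p = 0.278), with the opposite sign under total count scaling (0.18, adjusted p = 0.072). The ratio of Tgfbr2 to Tgfbr1 reads was 2.49 in Ade + IMC against 1.44 in Con (log2 difference 0.79, exact permutation p = 0.00433), and again no library overlapped. Tgfbi to Ctgf did not overlap Con either (log2 difference 1.59, exact permutation p = 0.00433). Smad3 to Smad7 and Smad2 to Smad7 were higher than in Con by 0.23 and 0.35 on the log2 scale with overlap (exact permutation p = 0.0173 and 0.0216). For Tgfb1 to Tgfb2 and Tgfb1 to Tgfb3 no difference from Con was detected (log2 differences 0.29 and 0.002, exact permutation p = 0.290 and 0.961).

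**Figure D3:**
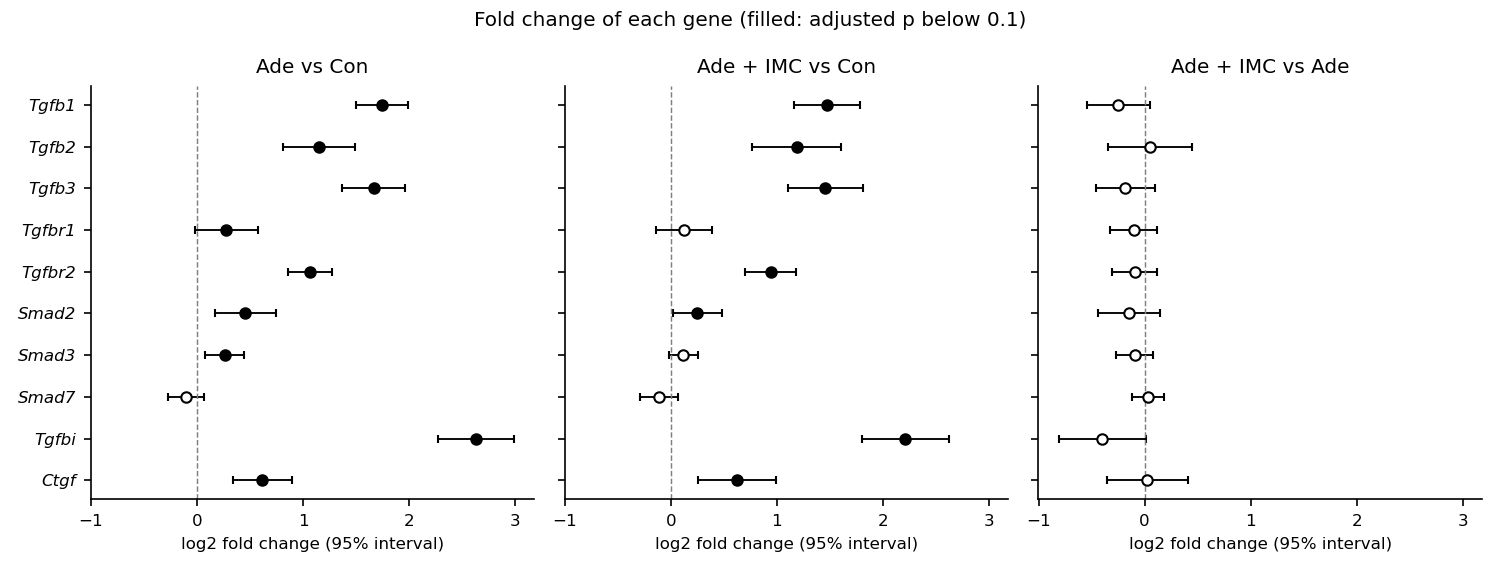
Log2 fold change (x axis) of each of the 10 genes in the 3 comparisons, with 95% intervals. Filled points had an adjusted p below 0.1 over all genes tested. Tgfbi has the highest estimate against Con in both adenine-fed groups, and all 10 intervals include 0 for Ade + IMC against Ade.

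Between Ade + IMC and Ade kidneys, none of the 10 genes was called by limma on log2(normalized count + 1), where 0% of the 14696 genes tested passed. At an unadjusted p below 0.05, 495 of all genes were higher and 493 lower, DESeq2 called 37 genes and edgeR on the recovered reads called 0. With a block on the first digit of the mouse numbers, limma called 133 genes and edgeR 104, none of them among the 10. Of the 10 genes, 7 had estimates below 0 and 3 above, none had an unadjusted p below 0.05, and the median log2 difference was -0.10 against 0.006 over all genes tested. Tgfbi had the estimate farthest from 0, at 90.4 ± 22.6 CPM in Ade + IMC and 118 ± 24.1 CPM in Ade (SD, n = 6 each). Its log2 difference was -0.40 (95% interval -0.81 to 0.01, adjusted p = 0.742, exact permutation p = 0.102). Tgfb1 was at 80.1 ± 16.6 and 94.0 ± 13.3 CPM (log2 difference -0.25, 95% interval -0.54 to 0.05, adjusted p = 0.751, exact permutation p = 0.128). For both genes the mice of the 2 groups overlapped.

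The intervals bound what these mice could show. For Tgfb3 the log2 difference was -0.18 (95% interval -0.46 to 0.10) and for Tgfb2 it was 0.05 (-0.34 to 0.45). The receptors were estimated at -0.10 for Tgfbr1 (-0.32 to 0.12) and -0.09 for Tgfbr2 (-0.30 to 0.12). Smad2 was at -0.15 (-0.44 to 0.14), Smad3 at -0.09 (-0.27 to 0.08) and Smad7 at 0.03 (-0.12 to 0.18). Ctgf was at 0.02 (-0.36 to 0.40), with the widest interval after those of Tgfbi and Tgfb2. None of the 6 gene ratios computed differed between Ade + IMC and Ade (exact permutation p of 0.180 or more, with 0.00216 the smallest possible). Those 6 ratios in 3 comparisons made 18 tests, chosen after the values had been seen. Adjusted over the 18, the Ade against Con values were 0.013 for Tgfbr2 to Tgfbr1, for both SMAD ratios and for Tgfbi to Ctgf, and 0.039 for Tgfb1 to Tgfb2 (Benjamini-Hochberg over exact permutation p-values).

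The mouse numbers in the labels begin with 2, 3 or 4, for which no meaning is given. Tgfb1 was higher in Ade than in Con by 1.87, 1.83 and 1.58 on the log2 scale among mice whose number begins with 2, 3 and 4. For Tgfbi these differences were 2.84, 2.94 and 2.04, for Tgfbr2 0.93, 1.06 and 1.26, and for Ctgf 0.74, 0.33 and 0.38. Between Ade + IMC and Ade, Tgfbi differed by -0.26, -0.42 and -0.72, and Tgfb1 by -0.21, -0.38 and -0.28. Tgfb2 did not keep 1 direction across the digits there, at -0.40, 0.64 and -0.04. Each digit held 1 to 3 mice per group, so these are values without a test of their own.

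Other genes of the pathway were counted in 6 lists, of which several genes belong to more than one. Their counts are to be read against all genes tested in Ade against Con, of which 35.1% were higher and 32.2% lower, with a median log2 fold change of 0.019. Among 20 genes of latency and activation, 14 were higher and 3 lower in Ade than in Con, with a median log2 fold change of 1.004. Ltbp2, a latent TGF-β binding protein family member, had the largest difference of that list, at 0.795 to 1.62 CPM in Con and 77.4 to 160 CPM in Ade (log2 fold change 6.83, adjusted p = 1.2e-09). The metalloproteinases Mmp2 and Mmp14, which can release latent TGF-β, were at 6.59 and 19.2 CPM on average in Con and 72.5 and 178 CPM in Ade (adjusted p = 1.9e-09 and 2.1e-09). The 3 lower genes were Itgb8 (log2 fold change -2.01) and Itgb6 (-0.75), the β subunits of the integrins that activate TGF-β on epithelia, and Furin (-0.57), the protease that cuts the precursor. These 3 were named after their values were seen. Ade + IMC against Con gave 15 higher and 4 lower, where 30.9% of all genes were higher and 32.3% lower.

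Of 8 co-receptors and decoys tested, 5 were higher and 1 was lower in Ade, against 35.1% and 32.2% of all genes. The proteoglycans Bgn and Dcn, which bind TGF-β in the matrix, rose from 299 to 1252 CPM and from 39.9 to 229 CPM on average (log2 fold changes 2.07 and 2.53, adjusted p = 1.5e-08 and 1.8e-07), and Cd109, a membrane-anchored TGF-β binder, rose from 1.65 to 8.66 CPM (2.41, adjusted p = 4.8e-06). Tgfbr3, the betaglycan co-receptor that presents Tgfb2, was the lower gene, at 75.1 ± 20.3 CPM (SD, n = 5) in Con and 50.4 ± 9.68 CPM (SD, n = 6) in Ade (log2 fold change -0.57, adjusted p = 0.015). The groups overlapped, since the lowest Con mouse was at 46.7 CPM. In Ade + IMC it was at 66.6 CPM on average and was not called against Con (adjusted p = 0.342) or against Ade (log2 difference 0.40, adjusted p = 0.711).

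Of 19 SMAD partners and regulators tested, 7 were higher and 9 lower in Ade, with a median log2 fold change of -0.17. The share higher was near the 35.1% of all genes, and the share lower was above their 32.2%. This was not tested, and nothing particular to this list is read from the counts. Among those higher were Tgfb1i1 (log2 fold change 1.77), Tgif1 (1.56), a nuclear repressor of SMAD transcription, and Pmepa1 (1.17), a TGF-β-induced inhibitor of receptor SMADs (adjusted p = 3.3e-08, 1.2e-06 and 4.9e-06). Smad6, the inhibitory SMAD of the BMP branch, was not called (log2 fold change -0.16, adjusted p = 0.284), as was Smad7. In the BMP and activin branch 9 of 24 genes were higher and 12 lower, with a median of -0.16. Here too the share higher was near the 35.1% of all genes, and the share lower was above their 32.2%, which was not tested. Inhbb, an activin subunit, Bmp1, a procollagen proteinase despite its name, and Gdf11, a ligand of the activin type, were higher by 2.78, 1.81 and 1.56 on the log2 scale (adjusted p = 8.0e-08, 8.8e-08 and 2.1e-07).

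Of 10 BMP and activin antagonists tested, 5 were higher and 2 lower in Ade, which for 10 genes is close to the 35.1% and 32.2% of all genes. Grem1, a secreted BMP antagonist known from fibrotic kidney, was at 0 to 0.405 CPM in Con, about what 3 reads give in these libraries, and at 5.99 to 18.3 CPM in Ade, so no fold is given. Fstl1 rose from 48.2 to 205 CPM (log2 fold change 2.10, adjusted p = 1.7e-08). Chrdl1, a chordin-like BMP antagonist, fell from 25.3 to 3.09 CPM (-3.03, adjusted p = 3.6e-06). Of 25 TGF-β target genes, 21 were higher and 3 lower, with a median log2 fold change of 1.41, against 35.1% higher and 32.2% lower of all genes. Those higher were led by the fibrillar collagens Col1a1 (4.20), Col3a1 (4.13) and Col1a2 (3.07), each with an adjusted p below that of any of the 10 genes. The 3 lower were Nox4 (-2.27), an NADPH oxidase abundant in proximal tubule, Itgb6 (-0.75) and Plau (-0.68), the urokinase gene, again named after their values were seen. Ade + IMC against Con gave 5 higher and 0 lower of the co-receptors and decoys, 7 and 10 of the SMAD partners, 9 and 13 of the BMP and activin branch, 5 and 1 of the antagonists, and 19 and 3 of the targets, against 30.9% higher and 32.3% lower of all genes.

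**Figure D4:**
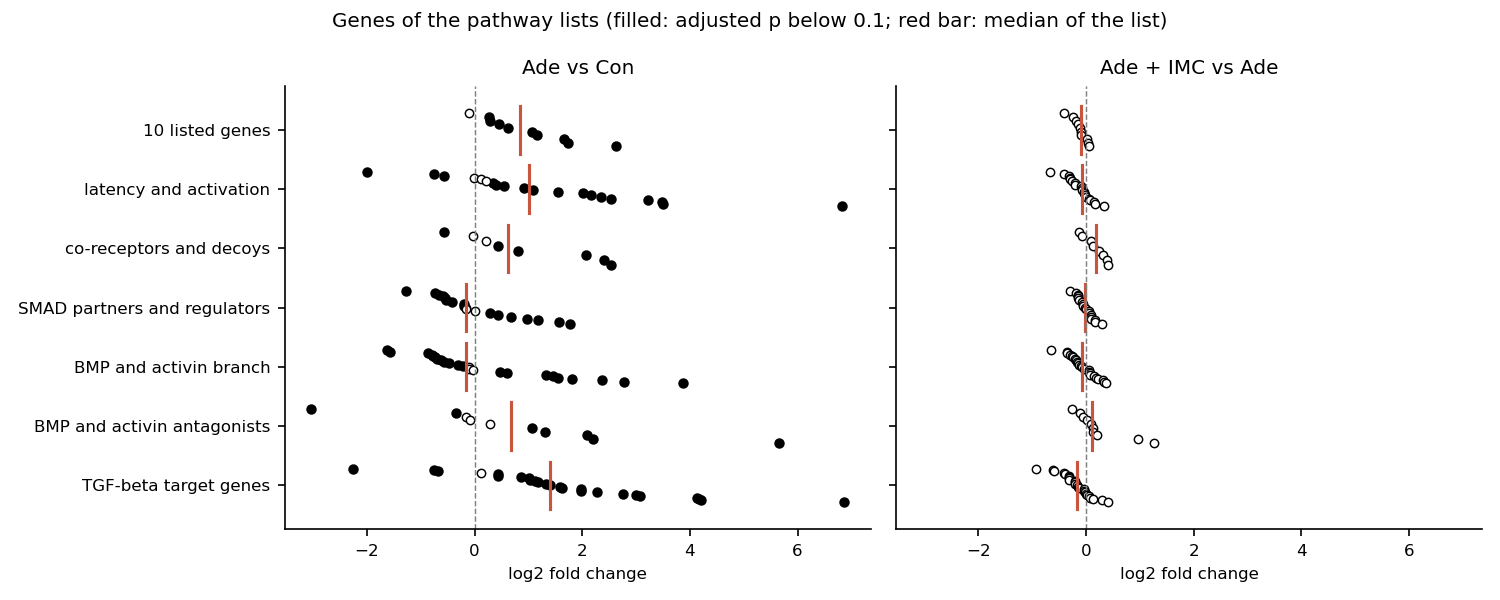
Log2 fold change (x axis) of the genes of each pathway list, for Ade against Con and Ade + IMC against Ade. Each point is a gene, filled where its adjusted p was below 0.1, and the red bar is the median of the list. Against Con the target genes have the highest median (1.41) and the SMAD partners and the BMP and activin branch lie on both sides of 0, while no gene is filled for Ade + IMC against Ade.

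Between Ade + IMC and Ade none of these pathway genes was called by limma. Those named for their p-value in this comparison were Ltbp2 (log2 difference -0.67), Tgfbr3 (0.40), Smad6 (0.30), Bmp1 (-0.35) and Col3a1 (-0.40), with an adjusted p of 0.727 for Smad6 and 0.711 for each of the others.

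Cell type markers moved with the comparison with Con. Their counts are to be read against all genes tested in Ade against Con, of which 35.1% were higher and 32.2% lower. All 10 macrophage and all 8 T cell markers were higher in Ade, with summed levels of 1504 to 2554 CPM against 221 to 269 CPM in Con for macrophages and 73.7 to 251 against 9.06 to 16.0 CPM for T cells. The lysozyme gene Lyz2 of macrophages rose by 4.64 and the T cell receptor kinase gene Lck by 3.41 on the log2 scale (adjusted p = 4.8e-09 and 6.3e-07). Among the fibroblast and pericyte markers 9 of 10 were higher, at 568 to 920 CPM summed in Ade and 269 to 320 CPM in Con, including Mfap5 (log2 fold change 4.52), Dpt (4.13) and Dcn. All 10 injured tubule markers were higher, among them Havcr1, which encodes KIM-1 and rested on few reads in Con (0.135 to 0.913 CPM) and at 74.1 to 268 CPM in Ade. Their summed level was 5546 to 18320 CPM in Ade against 1513 to 1877 CPM in Con. Of the tubule and podocyte markers 7 of 10 were lower, with sums of 5534 to 12457 CPM in Ade against 16996 to 23822 CPM in Con, including Lrp2 (-2.65) and Cubn (-2.37), the endocytic receptors of the proximal tubule. Of the endothelial markers 4 of 8 were lower and none higher, against 32.2% of all genes lower. In Ade + IMC against Con 2 were higher and 2 lower, where 30.9% of all genes were higher and 32.3% lower. No marker in any list was at 0 in all mice, and the part these cell types had in the TGF-β values was not tested.

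In Ade + IMC the sums were 1368 to 2270 CPM for macrophages, 71.3 to 364 CPM for T cells, 646 to 1072 CPM for fibroblasts and pericytes, 505 to 971 CPM for endothelial markers, 8091 to 13878 CPM for tubule and podocyte markers and 3285 to 11957 CPM for injured tubule markers. No marker was called between Ade + IMC and Ade by limma without a block. Vcam1, Sox9 and Aqp2 were called by DESeq2 and in the fits with a term for the leading digit. With DESeq2 the log2 differences were -0.88 for Vcam1, -1.03 for Sox9 and 0.76 for Aqp2, and the signs were the same in the fits with that term.

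Genes with the profile most like that of 4 of the genes across the 17 mice were sought among 15079 genes, by the root mean square difference of log2 CPM after each gene was centred on its own mean. For Tgfb1, whose own SD was 0.79, they were Ucp2 (0.121), Ier5 (0.142) and Lgals3bp (0.150), while Tgfb3 ranked 195 (0.264). Tgfbr2 (SD 0.50) was nearest to Tbc1d2b (0.108), Itpripl2 (0.113) and Fam129a (0.116). Smad3 (SD 0.15) lay nearest to Csnk1d, Lasp1 and Ano6 (0.067 to 0.070), and Ctgf (SD 0.40) nearest to Maml3 (0.158), Nes (0.160) and Taf1c (0.193). The mice share diets and libraries, so these distances describe the profiles and carry no test.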

How the data were processed

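RNA was measured by 50-base single-end sequencing of whole kidney from 17 mice (5 Con, 6 Ade, 6 Ade + IMC). The authors deposited raw read counts per gene for Con and Ade mice, and a normalized signal, counts divided by DESeq2 size factors, for Ade and Ade + IMC mice. The study's methods name STAR and mm10, whereas the labels list Trimmomatic 0.39, FastQC 0.11.8, Bowtie2 2.2.5, HTSeq 0.9.1 and DESeq2. Annotation release and strand setting are not given in the sources used here. The authors' other deposited columns (fold changes and p-values of their own Ade + IMC against Ade comparison) were not used, and only gene symbols were read from that table. Reads of the Ade + IMC mice were recovered from the step of 1 read in the normalized signal: 100% of values were whole within 0.01, and the Ade values, recovered in the same way, differed from the raw counts at 0 genes. Both comparisons with Con used edgeR 4.0.16 (quasi-likelihood, TMM, filterByExpr) under R 4.3.3, and Ade + IMC against Ade used limma 3.58.1 with trend on log2(normalized count + 1) for genes with a mean of at least 10, since those values are a normalized signal. Its fold changes are therefore on the scale of log2(value + 1), which understates changes of low genes. P-values were adjusted by Benjamini-Hochberg over all genes tested and called below 0.1, the study's threshold. CPM was scaled by TMM over all 17 mice. Exact permutation tests were two-sided (scipy 1.17.1). Lengths, coordinates and overlaps came from GENCODE M21 (GRCm38). Alternatives were DESeq2 1.42.0, other scalings, filters and pseudocounts, a block on the first digit of the mouse number, and leaving out each mouse. Total count scaling was added after the data had been seen. The fits were tested on simulated data. No 2 libraries of a group agreed within sampling noise. Replicates are single mice.

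The members and lists were chosen with earlier results of these data known. Named were all 10 genes, from each other list the 3 genes with the smallest adjusted p in Ade against Con and the gene with the smallest p in Ade + IMC against Ade, and the 3 nearest profiles of Tgfb1, Tgfbr2, Smad3 and Ctgf. A gene that the rule names is not reported here. Markers and genes outside this rule are said to be so where named. Replicate numbers follow the order of samples within a group and pair no mice.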

Additional observations from a re-analysis of the deposited data

Results flagged for a closer look

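In 33 groups of values (10 genes and the total count in 3 groups of mice), 3 had a mouse far from the others of its group by Dixon's criterion, where chance gives about 1 in 20. Tgfbi in Con replicate 5 was at 24.65 CPM, with the other 4 Con mice at 16.6 to 18.7 CPM, and without this mouse the log2 fold change of Tgfbi in Ade against Con was 2.74. Smad2 in Ade replicate 1 was at 57.9 CPM, with the other 5 Ade mice at 33.4 to 42.4 CPM. The library of Ade replicate 3 held 5444833 reads, with the others of its group at 7166746 to 7673215. The causes were not tested.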

How the results depend on the processing

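Over the alternatives run, 180 of 190 refitted values of the 10 genes in Ade against Con, 186 of 200 in Ade + IMC against Con and 200 of 210 in Ade + IMC against Ade kept their direction and their side of the threshold. Refits that each lacked a single mouse called 8 to 9 genes of the 10 in Ade against Con, 6 to 8 in Ade + IMC against Con and 0 in Ade + IMC against Ade. Total count scaling, chosen after seeing the data, called all 10 genes higher against Con in both diets, with Smad7 at 0.195 (Ade) and 0.183 (Ade + IMC), Tgfbr1 at 0.423 and Smad3 at 0.412 (Ade + IMC) on the log2 scale. At a threshold of 0.05, Tgfbr1 in Ade and Smad2 in Ade + IMC were not called.

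With a replicate block on the leading digit of each mouse's number, no call among the 10 genes changed in any comparison. In Ade + IMC against Ade this block raised the calls over all genes from 0 to 133 with limma and from 0 to 104 with edgeR, gave 1 called pathway gene with limma, and left Tgfbi at an adjusted p of 0.137. Tgfb2 changed sign there to -0.017 (limma) and -0.027 (edgeR). Without 1 mouse at a time, the log2 difference of Tgfb2 in that comparison ran from -0.053 to 0.147 and that of Ctgf from -0.081 to 0.120, so neither had a settled sign. The cause was not tested. The intervals given for the fold changes came from the fits, with single mice as replicates, so they include the spread between mice.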
